A study of Mus musculus with 12 samples.

Results

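The p53 target genes are 34 genes, made up of Trp53, which encodes the tumour suppressor p53, and genes of its pathway, most of which p53 is known to switch on. They were taken by gene name from a fixed list, and each name matched 1 gene of the 54345 genes in the deposited expression table. By known role, 7 are regulators of p53 or its feedback loops, 6 act in cell cycle arrest, 10 in apoptosis, 5 in DNA repair or nucleotide supply, and 6 in metabolism, stress signalling or secretion. The 12 poly(A) libraries came from H9c2(2-1) cells at 6 h, with 3 libraries for each of 4 groups. Unt cells were untreated, DOX cells received doxorubicin, D_DXZ cells received doxorubicin with dexrazoxane, and D_MgHCF cells received doxorubicin with magnesium hexacyanoferrate nanocatalysts. All cells were labelled as wild type, and no group had dexrazoxane or MgHCF without doxorubicin, so each protectant was measured only on top of the drug. H9c2 is an established line from embryonic rat heart, whereas the labels give mouse and the reads were counted on mouse genes, so a gene's level also depends on how well its reads matched the mouse sequence. The labels call the cells myoblasts, but the myogenic regulators Myog, Myod1, Myf5 and Myf6 stayed at or below 0.126 FPKM in all 12 libraries. Only 3 of 9 muscle markers reached 1 FPKM in any library, and of these Vim, a mesenchymal filament gene, was the only one above 1.57 FPKM. The defining blood, endothelial and epithelial markers Ptprc, Pecam1 and Epcam stayed at or below 0.933 FPKM, while the blood list's summed level ran from 0.939 to 1.11 in Unt, from 2.75 to 3.52 in DOX, from 3.79 to 4.39 in D_DXZ and from 1.98 to 4.78 in D_MgHCF, mainly through Cd68. Its part in the results was not tested.

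p53 is a transcription factor that cells hold at a low level through Mdm2, a ubiquitin ligase that marks it for degradation. DNA damage, including the strand breaks that doxorubicin causes by trapping type II topoisomerase, triggers kinases that free p53 from Mdm2. The stabilised protein then binds response elements near its targets, whose products halt the cell cycle, aid repair, change metabolism or start apoptosis. Mdm2 and Ppm1d are themselves targets and close negative feedback loops. In the heart, activation of p53 is one of the responses described after anthracyclines.

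Levels are given as FPKM, the fragments per kilobase of gene scaled to library size by the authors. They allow for gene length but not for the match of rat reads to each mouse gene. In bulk RNA, fewer cells and less RNA per cell cannot be told apart. Differences are log2 changes, the difference between group means of log2(FPKM + 1) with its standard error (SE), from 1 limma fit over the 12 libraries. Ratios of means are of FPKM without the added 1, so for low genes they exceed what the log2 change gives. A gene was called higher or lower at a Benjamini-Hochberg adjusted p under 0.05 over all 25044 genes tested. Depth was 16626514 to 19365119 reads on genes per library, of which the 34 genes took 18477 to 78123. All 33 tested members were above 0 in all 12 libraries, 27 of them with at least 50 reads in each, and the thinnest value was 12 reads for Gadd45a. Pmaip1, the gene of the BH3-only protein Noxa, was listed at 0 in all 12 libraries and was not tested, where 3 reads would have been 0.0445 to 0.098 FPKM. Nothing in the sources says that the 3 libraries of a group came from separate cultures, so the p-values measure only the spread between these libraries. One property of the table touches each comparison with DOX or D_DXZ. The library size by which the authors' FPKM had been divided, recovered from the values, was 1.32 to 1.38 times the summed reads in Unt and 1.26 to 1.43 times in D_MgHCF, but 0.647 to 0.784 times in DOX and 0.747 to 0.892 times in D_DXZ. In DOX the most abundant transcripts were higher on this scale, with Actb at a mean of 1500 FPKM against 461 in Unt. Rescaling each library to equal summed FPKM (TPM) moved the median log2 change of DOX vs Unt over well expressed genes from 0.05 to -1.03, and rescaling to summed reads moved it to -0.69. For D_MgHCF vs Unt the same median was -0.08 as deposited and -0.22 on the TPM scale.

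The mouse reference shows what a p53 response element looks like at these genes. The element is a pair of joined copies of a 10-base consensus, which reads the same on both strands. RefSeq start-site windows of 300 bases (build GRCm38.p6, 250 bases before the start to 50 after it) were given for 26 of the 34 genes, in 38 windows. A match to the 20-base element with its 4 core C and G bases intact and at most 1 mismatch was found for 3 of the 26 genes, against 0.0814% of all 27025 genes with a window. With at most 3 mismatches it was found for 7 of the 26, against 1.63% of all genes, the added ones being Aen, Bbc3, Sesn1 and Trp53. Most of the listed genes were chosen as known p53 targets, so these larger shares are not independent evidence. The 3 closest matches, at Cdkn1a, Ccng1 and Rps27l, are shown so that the element can be read beside the values of these genes. Each run holds 60 bases with the element in capitals, written 5′ to 3′ along the gene's strand. Positions count from the start in the window that held the match, and Cdkn1a and Rps27l had 2 windows each. The deposited coordinates of Rps27l begin at 66946086, upstream of its printed element.
Cdkn1a, chr17:29090908-29090967, plus strand, element at positions -51 to -32 from the start: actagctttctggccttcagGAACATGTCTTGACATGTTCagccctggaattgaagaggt
Ccng1, chr11:40755442-40755501, minus strand, element at positions -195 to -176: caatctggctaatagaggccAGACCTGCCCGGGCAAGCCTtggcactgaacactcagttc
Rps27l, chr9:66946276-66946335, plus strand, element at positions -117 to -98: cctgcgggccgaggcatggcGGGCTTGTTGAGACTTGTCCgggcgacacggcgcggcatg
These are the mouse reference's bases, not the bases of the sequenced cells, and a match describes letters in a window rather than bound p53. The other 19 genes with a window held no match within 3 mismatches in it, which says nothing of elements elsewhere in those genes.

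**Figure D1:**
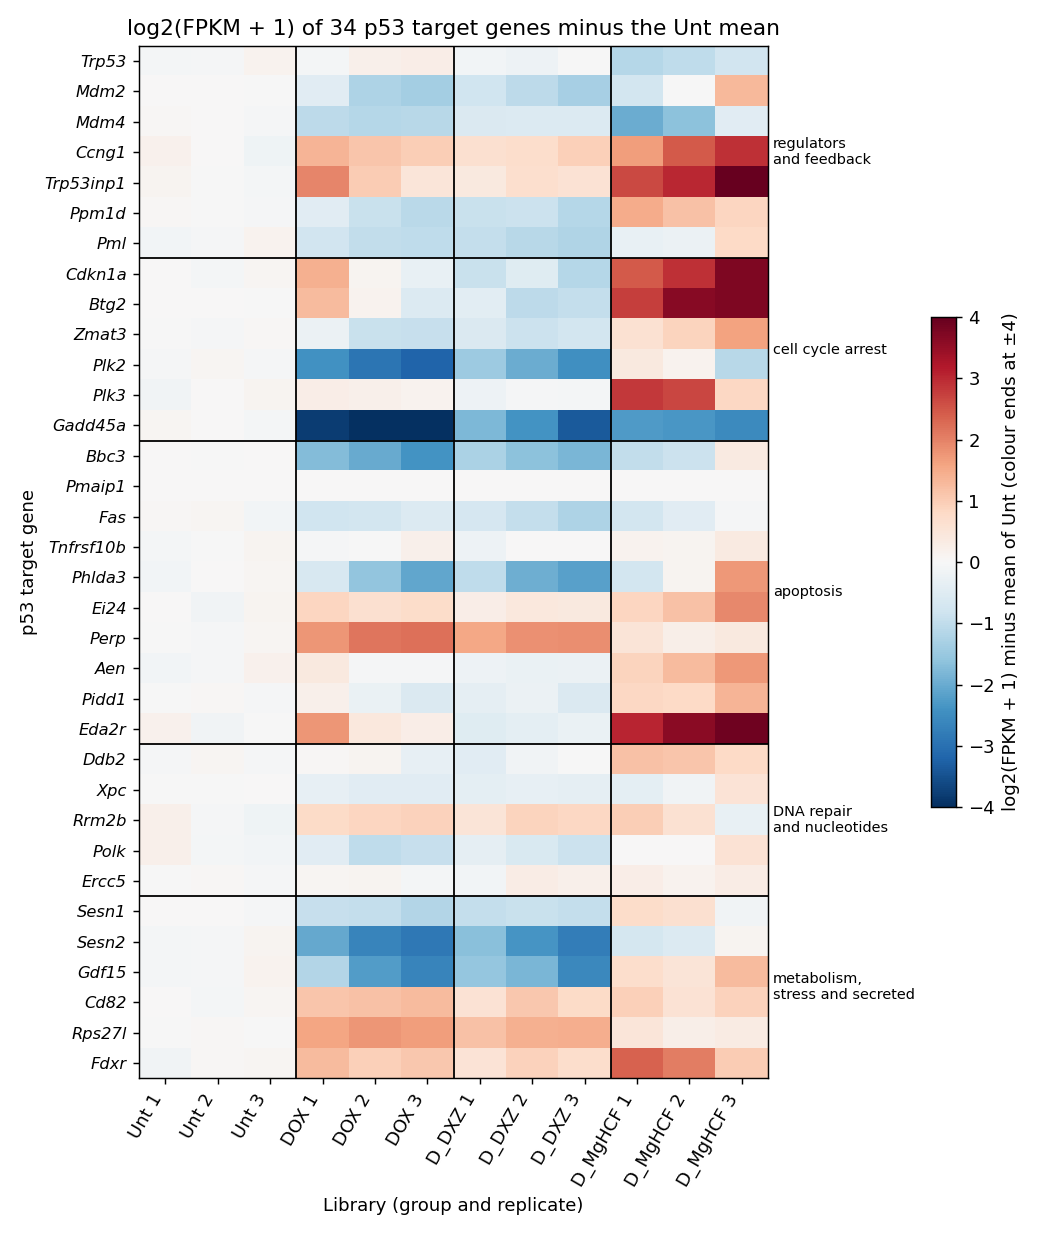
Heat map of the 34 p53 target genes (rows, grouped by role) in the 12 libraries (columns), coloured by log2(FPKM + 1) minus the mean of the 3 Unt libraries on the deposited scale. Cdkn1a, Btg2, Trp53inp1 and Eda2r are darkest red in the 3 D_MgHCF libraries, and Gadd45a, Plk2 and Sesn2 are darkest blue in the 3 DOX libraries.

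The DOX vs Unt comparison asks how the target genes stood after doxorubicin alone. Members moved in both directions. Gadd45a, Plk2, Sesn2, Bbc3 and Gdf15 fell by 2.02 to 4.20 on the log2 scale. Perp and Rps27l rose by 2.04 and 1.67, while Cdkn1a and Mdm2 were not called. Of the 22 alternatives run at the same call rule, 7 called Mdm2 lower and 0 called Cdkn1a. In all, 8 of 33 members were called higher (24.2%, against 18.6% of all genes tested) and 11 lower (33.3%, against 19.9%). Among genes with at least 1 FPKM in at least 3 libraries, which all 33 members were, 9 members were higher (27.3%, against 37.1% of all such genes) and 14 lower (42.4%, against 36.0%). At this level of expression the share called higher was below the background and the share called lower near it, so the counts alone are not a result about these genes. The members' median log2 change was -0.06, beside 0.05 for all genes with a mean of at least 1 FPKM. The split depended on the scaling, with 2 higher and 22 lower on the TPM scale and 2 and 21 on summed reads. The shares of all genes moved with it, to 4.39% higher and 40.1% lower on the TPM scale and 8.28% and 33.1% on summed reads. Gadd45a, Plk2, Sesn2, Bbc3, Gdf15, Pml, Fas and Perp kept their call and direction in all 22 alternatives run at the same call rule. Here and below, these 22 leave out the alternatives that changed the call rule. Pml and Fas, at -0.91 and -0.70, fell short of a 2-fold change.

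The D_MgHCF vs Unt comparison asks how they stood when the nanocatalysts were added to the drug. The 4 members with the largest rises were Eda2r, Btg2, Trp53inp1 and Cdkn1a, at 3.04 to 3.52 on the log2 scale, and their mean FPKM was 9.76 to 21.9 times that of Unt. Mdm2, Bbc3, Fas, Sesn2 and Gdf15 were among the 14 members not called, with log2 changes from -0.49 to 0.83. Altogether 16 of 33 members were called higher (48.5%, against 24.3% of all genes tested) and 3 lower (9.09%, against 15.7%), the latter being Gadd45a, Mdm4 and Trp53. Among genes of at least 1 FPKM the background was 24.6% higher and 29.9% lower, with 16 and 3 members called. The members' median log2 change was 0.41, beside -0.08 for all genes of at least 1 FPKM. Scaling mattered little here, since 15 to 17 members were higher and 3 lower on the TPM, summed-read and quantile scales. Of the 19 calls, 16 held in all 22 alternatives, and the exceptions were Mdm4, Perp and Rps27l.

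**Figure D2:**
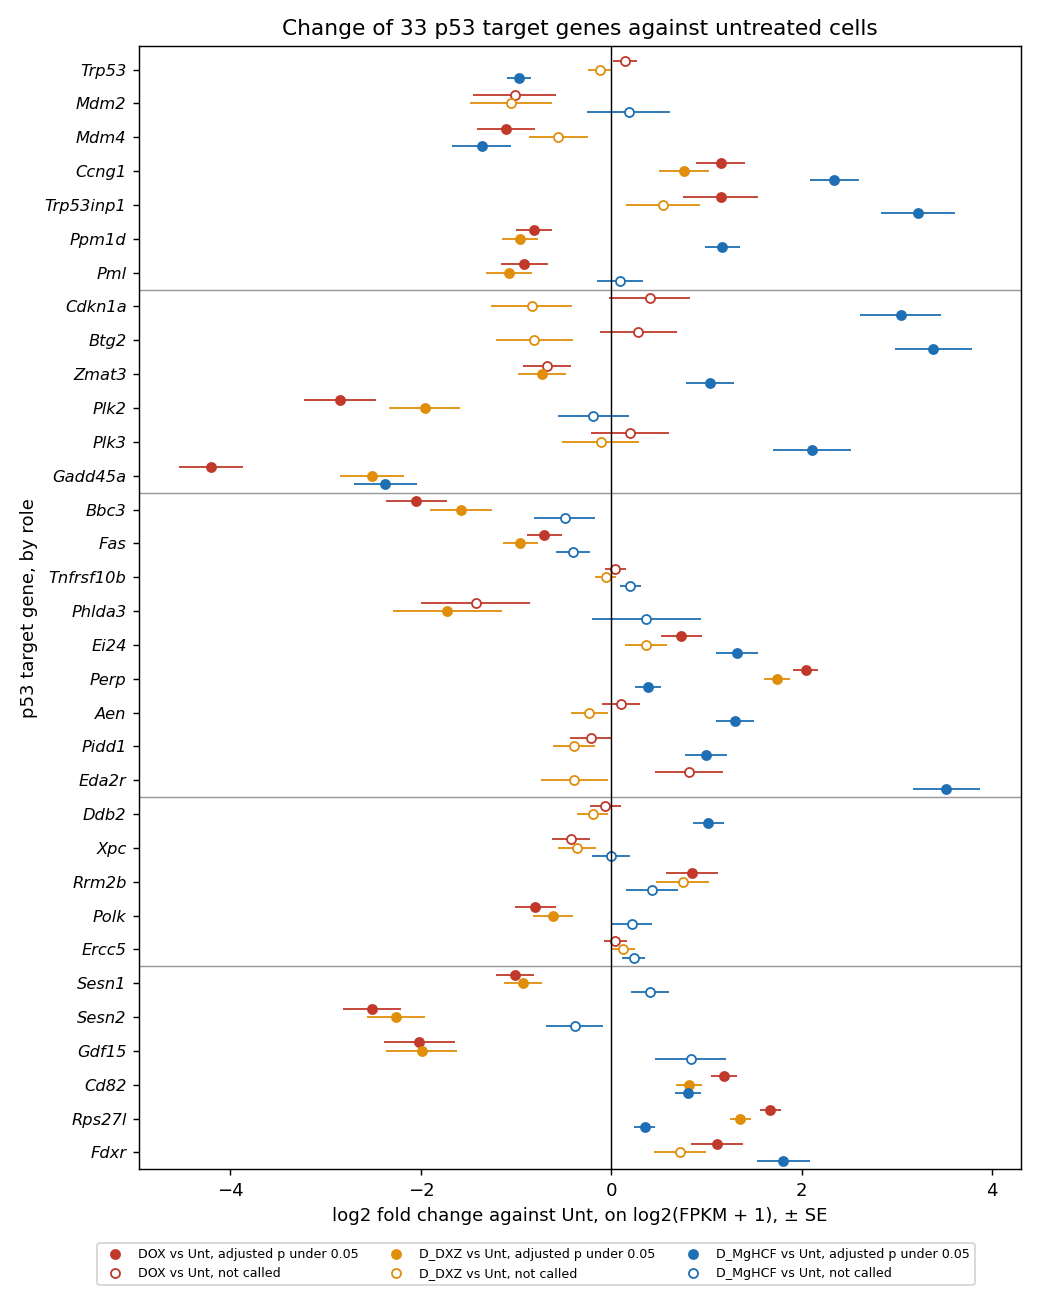
Log2 change against Unt (x axis, difference in mean log2(FPKM + 1), bars ± SE) of the 33 tested p53 target genes, ordered by role, for DOX (red), D_DXZ (orange) and D_MgHCF (blue), with filled points at an adjusted p under 0.05. Blue points lie to the right of red ones for Cdkn1a (3.04 against 0.40) and Btg2 (3.38 against 0.28), and to the left for Perp and Rps27l. On the TPM scale the called members Ccng1, Cd82, Ei24, Fdxr and Rrm2b change sign in DOX, and Ccng1 and Cd82 in D_DXZ.

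The regulators of p53 were split. Trp53 was at 56.6, 57.8 and 65.5 FPKM in Unt, 57.0, 69.8 and 72.8 in DOX, 55.1, 51.9 and 58.5 in D_DXZ, and 26.4, 29.3 and 35.1 in D_MgHCF. On the deposited scale the 3 D_MgHCF libraries were the lowest of the 12, and the other 3 groups overlapped. The log2 change of D_MgHCF vs Unt was -0.97 ± 0.13 (adjusted p = 0.000284). That of DOX vs Unt was 0.14 ± 0.13 (adjusted p = 0.47), and it turned to -1.20 on the TPM scale, -0.79 on summed reads and -1.08 under quantile normalization. Reads of Trp53 cannot be fully told from those of its pseudogene Trp53-ps, which shares 353 bases at 97.7% identity. Mdm2, the ligase that degrades p53, was at 9.74, 9.93 and 9.5 FPKM in Unt, 6.87, 3.56 and 3.16 in DOX, 5.23, 4.23 and 3.24 in D_DXZ, and 5.42, 9.58 and 25.5 in D_MgHCF. All DOX and D_DXZ libraries lay below Unt, yet the log2 change of -1.02 ± 0.43 in DOX missed the threshold (adjusted p = 0.0966). It passed without D_MgHCF replicate 3 (adjusted p = 0.00898), the library with the highest Mdm2 value. In D_MgHCF the Mdm2 libraries ran from below to above Unt, and no change was called (0.18 ± 0.43, adjusted p = 0.771).

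Mdm4, the relative of Mdm2 that binds and inhibits p53, was at 5.17 to 5.56 FPKM in Unt and 1.88 to 2.08 in DOX. It was at 3.28 to 3.40 in D_DXZ and at 0.602, 1.07 and 3.67 in D_MgHCF. Every treated library was below Unt, with a fall of 1.10 ± 0.31 in DOX (adjusted p = 0.0148) and of 1.36 ± 0.31 in D_MgHCF (adjusted p = 0.00626). Ppm1d, the phosphatase Wip1 that shuts off damage signalling, went in opposite directions. From 4.71 to 5.02 FPKM in Unt it fell to 3.28, 2.14 and 1.77 in DOX (by 0.81 ± 0.19, adjusted p = 0.00557) and rose to 15.2, 12.2 and 9.59 in D_MgHCF (1.17 ± 0.19, adjusted p = 0.00101). Its groups did not overlap in either comparison. Under quantile normalization the falls of Mdm4 and Ppm1d in DOX lost their call (adjusted p = 0.195 and 0.243). Trp53inp1, a stress protein that promotes p53 activity, was near 1 FPKM in Unt (0.803 to 1.03), at 6.41, 2.84 and 1.63 in DOX, 1.47, 2.04 and 1.83 in D_DXZ, and 10.8, 14.2 and 29.9 in D_MgHCF. Its rise in D_MgHCF was 20.3 times the Unt mean (3.22 ± 0.39, adjusted p = 0.000205). The rise in DOX (1.15 ± 0.39, adjusted p = 0.0399) was lost without DOX replicate 1 (0.74, adjusted p = 0.142) and in 11 of the other alternatives.

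Ccng1, cyclin G1, which brings a phosphatase to Mdm2 and carries one of the printed elements, was at 13.8, 12.3 and 10.8 FPKM in Unt. It stood at 32.8, 27.5 and 25.2 in DOX, 19.5, 20.4 and 24.7 in D_DXZ, and 41.0, 70.8 and 99.2 in D_MgHCF. All treated libraries were above Unt on the deposited scale, with log2 changes of 1.15 ± 0.26 in DOX (adjusted p = 0.0046), 0.76 ± 0.26 in D_DXZ (adjusted p = 0.0441) and 2.34 ± 0.26 in D_MgHCF (adjusted p = 0.000126), but on the TPM scale the first was -0.15 and the second -0.36, neither of them called. Pml, the scaffold of nuclear bodies that hold p53, fell from 15.8 to 18.6 FPKM in Unt to 7.91 to 9.64 in DOX (by 0.91 ± 0.24, adjusted p = 0.0118). In D_MgHCF it was at 13.5, 14.4 and 30.1 FPKM and overlapped Unt.

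The arrest genes held the widest contrasts. Of the 3 printed elements, Cdkn1a carries the closest to the start it was counted from. It encodes p21, the inhibitor of cyclin-dependent kinases that carries out much of the p53-dependent arrest. Its FPKM was 8.37, 7.81 and 8.76 in Unt, 23.8, 9.05 and 6.49 in DOX, 4.01, 5.70 and 3.23 in D_DXZ, and 50, 69.4 and 124 in D_MgHCF. DOX replicate 1 stood well above the other DOX libraries, DOX as a group overlapped Unt, all D_DXZ libraries were below Unt, and all D_MgHCF libraries were the highest of the 12. The log2 change was 0.40 ± 0.43 in DOX (adjusted p = 0.571), -0.83 ± 0.43 in D_DXZ (adjusted p = 0.179) and 3.04 ± 0.43 in D_MgHCF (adjusted p = 0.000442). Btg2, an antiproliferative cofactor of mRNA deadenylation, had a like order: 2.92 to 3.01 FPKM in Unt, 8.48, 3.38 and 1.73 in DOX, 1.94, 0.946 and 1.04 in D_DXZ, and 26.2, 48.3 and 52.1 in D_MgHCF. Only the rise in D_MgHCF was called, at 14.2 times the Unt mean (3.38 ± 0.40, adjusted p = 0.000186). Zmat3, an RNA-binding zinc finger protein, was at 3.44 to 3.66 FPKM in Unt, 1.41 to 2.85 in DOX and 5.96 to 12.9 in D_MgHCF. Its rise in D_MgHCF was called (1.04 ± 0.25, adjusted p = 0.00905), and its log2 change of -0.68 ± 0.25 in DOX was not (adjusted p = 0.0572), although all 3 DOX libraries were below Unt. Of 22 alternatives, 10 called Zmat3 lower in DOX.

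Gadd45a, a stress sensor that binds PCNA and activates p38 signalling, showed the largest fall of the 33. It was at 38.4, 36.3 and 34 FPKM in Unt, 1.68, 0.928 and 0.588 in DOX, 9.80, 6.06 and 2.63 in D_DXZ, and 6.80, 6.48 and 5.36 in D_MgHCF. Each treated library was below each Unt library. Log2 changes were -4.20 ± 0.33 in DOX (adjusted p = 1.23e-05), -2.51 ± 0.33 in D_DXZ (adjusted p = 0.000265) and -2.37 ± 0.33 in D_MgHCF (adjusted p = 0.000438). The antisense-strand gene E230016M11Rik overlaps 337 exonic bases of Gadd45a, and whether counting used strand is not given in the sources used here, though that gene reached only 0.497 FPKM. Plk2 and Plk3, stress-responsive polo-like kinases, parted ways. Plk2 was at 23.7 to 25.7 FPKM in Unt, 3.74, 2.33 and 1.77 in DOX, 8.26, 5.47 and 3.63 in D_DXZ, and 32.1, 27.3 and 10.9 in D_MgHCF. It fell by 2.85 ± 0.38 in DOX (adjusted p = 0.000143) and spanned the Unt range in D_MgHCF (-0.19 ± 0.38, adjusted p = 0.726). Plk3 was at 6.50 to 7.92 FPKM in Unt, 7.99 to 8.82 in DOX and 6.19 to 6.93 in D_DXZ, against 57.0, 51.4 and 13.7 in D_MgHCF. All D_MgHCF libraries were above Unt, with replicate 3 far below the others, and the rise was 2.11 ± 0.41 (adjusted p = 0.00274).

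**Figure D3:**
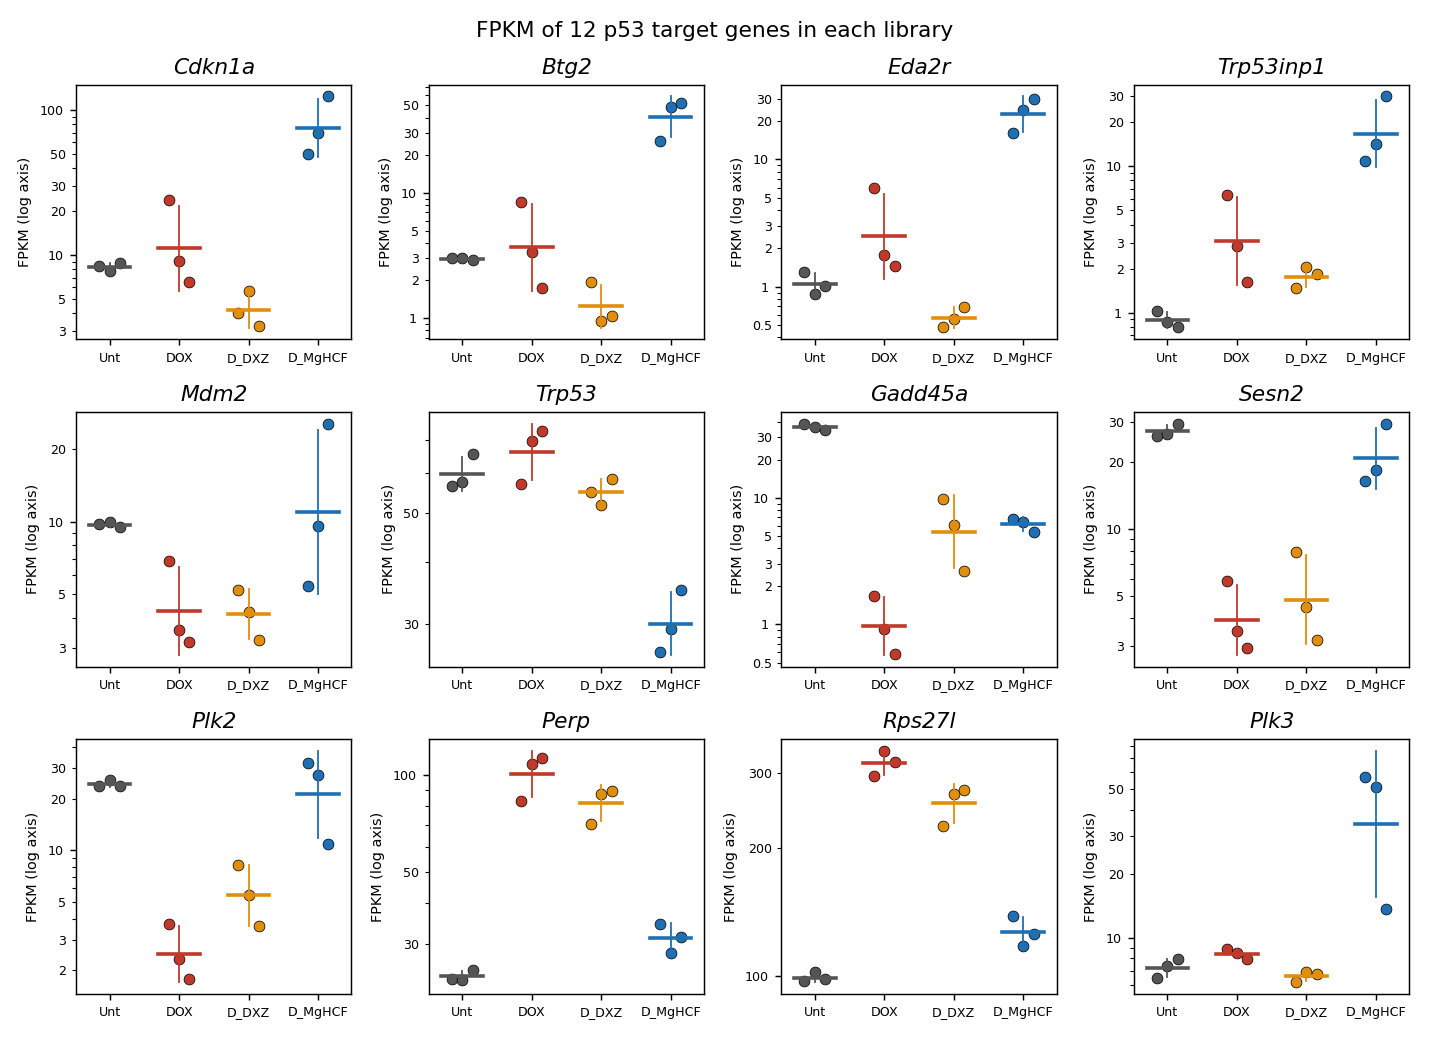
FPKM as deposited, on a log axis, of 12 p53 target genes in each of the 12 libraries (points), with the geometric mean of each group (horizontal line) and 1 SD on the log2 scale (vertical line). The 3 D_MgHCF libraries are the highest of the 12 for Cdkn1a, Btg2, Eda2r and Trp53inp1 and the lowest for Trp53, while the 3 DOX libraries are the lowest for Gadd45a (0.588 to 1.68 FPKM).

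The apoptosis genes did not move as a unit. Bbc3 encodes PUMA, a BH3-only protein that neutralises BCL2 family survival factors. It was at 6.84 to 7.05 FPKM in Unt, 1.40, 0.954 and 0.529 in DOX, 2.30, 1.58 and 1.23 in D_DXZ, and 3.07, 3.40 and 9.25 in D_MgHCF. The fall in DOX was 2.05 ± 0.32 (adjusted p = 0.000458). In D_MgHCF no change was called, with replicate 3 above Unt and the others below, and without that library the log2 change became -0.91 (adjusted p = 0.00413). Fas, the death receptor, fell in DOX from 9.38 to 10.8 FPKM to 5.41 to 6.62 (by 0.70 ± 0.18, adjusted p = 0.0105) and was at 5.81 to 9.98 in D_MgHCF. Tnfrsf10b, a TRAIL death receptor, was among the flattest members, at 6.80 to 10.5 FPKM in all 12 libraries and not called in any of the 6 comparisons on the deposited scale. It shares 405 bases at 97.5% identity with Gm15574.

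Eda2r, the ectodysplasin A2 receptor, was at 1.31, 0.878 and 1.02 FPKM in Unt, 6.00, 1.77 and 1.45 in DOX, 0.484, 0.557 and 0.699 in D_DXZ, and 16, 24.3 and 29.9 in D_MgHCF. The 4 groups did not overlap one another. In D_MgHCF it rose to 21.9 times the Unt mean (3.52 ± 0.36, adjusted p = 8.03e-05), while the DOX change of 0.81 ± 0.36 missed the threshold (adjusted p = 0.105). Aen, an apoptosis-enhancing nuclease, rose in D_MgHCF from 6.87 to 8.52 FPKM to 14.7 to 27.5 (1.30 ± 0.20, adjusted p = 0.000704). Pidd1, the scaffold that activates caspase-2, rose in D_MgHCF from 1.59 to 1.79 FPKM to 3.62 to 5.83 (0.99 ± 0.22, adjusted p = 0.00566). Neither was called in DOX. Phlda3, a lipid-binding inhibitor of Akt, was the most scattered of the group, at 17.3 to 19.8 FPKM in Unt, 11.7, 5.60 and 3.72 in DOX, 8.66, 4.06 and 3.36 in D_DXZ, and 10.7, 20.5 and 64.5 in D_MgHCF. Its SE of 0.58 was the largest of the members, and it was not called against Unt in DOX (-1.42, adjusted p = 0.0791) or D_MgHCF (0.37, adjusted p = 0.647). In DOX it was called lower in 8 of 22 alternatives.

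Perp and Ei24 were the apoptosis genes called higher in DOX. Perp, a tetraspan membrane protein of desmosomes and apoptosis, was at 23.2, 23.2 and 24.9 FPKM in Unt, 83.3, 109 and 113 in DOX, 70.6, 87.2 and 89.2 in D_DXZ, and 34.5, 28.0 and 31.5 in D_MgHCF. It rose 4.28 times in DOX (2.04 ± 0.14, adjusted p = 1.07e-05), and the rise was also called on the TPM scale, where it was 0.70. In D_MgHCF it was closer to Unt (0.38 ± 0.14, adjusted p = 0.0452), a call lost in 10 of 22 alternatives. Ei24, an endoplasmic reticulum protein, was at 9.85 to 11.8 FPKM in Unt, 17.3 to 20.4 in DOX and 20.6 to 44.3 in D_MgHCF. Its rise was called in DOX (0.74 ± 0.22, adjusted p = 0.0204) and in D_MgHCF (1.32 ± 0.22, adjusted p = 0.00111), but in DOX it turned to -0.54 on the TPM scale and -0.15 on summed reads.

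In DOX vs Unt the repair genes held calls in both directions. Xpc, which recognises helix distortions, was at 3.31 to 3.47 FPKM in Unt and 2.18 to 2.46 in DOX (-0.42 ± 0.20, adjusted p = 0.136). Ercc5, the excision nuclease XPG, stayed between 2.90 and 4.16 FPKM in all 12 libraries with no call in the 6 comparisons, although on the TPM scale it was called lower in DOX (-1.02) and D_DXZ (-0.82) than in Unt, and under quantile normalization higher in both (0.48 and 0.49). Ddb2, the other damage sensor of nucleotide excision repair, was at 2.68 to 3.07 FPKM in Unt, 2.02 to 3.08 in DOX and 5.55 to 7.52 in D_MgHCF, and only the last was called (1.02 ± 0.16, adjusted p = 0.00101). Its exons share 652 bases with Acp2 on the opposite strand, a gene of up to 14.1 FPKM, so the reads of the pair cannot be separated with certainty. Rrm2b, the p53-induced subunit of ribonucleotide reductase, was at 4.01, 3.23 and 2.89 FPKM in Unt, 6.45, 6.83 and 7.31 in DOX, 5.25, 7.15 and 6.68 in D_DXZ, and 7.70, 5.59 and 2.51 in D_MgHCF. It was called higher in DOX (0.85 ± 0.27, adjusted p = 0.0306), a sign that turned on the TPM scale (-0.28), and it shares 1051 bases at 96.1% identity with Gm8616. Polk, a translesion polymerase, fell in DOX from 3.45 to 4.55 FPKM to 1.40 to 2.5 (by 0.80 ± 0.21, adjusted p = 0.012) and was at 3.88 to 6.27 in D_MgHCF, where it was not called. Its call in DOX was lost in 3 of 22 alternatives.

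The metabolic and stress genes again fell into opposite sets. Sesn1 and Sesn2 encode sestrins, which restrain mTORC1 under stress. Sesn2 was at 26.0, 26.6 and 29.5 FPKM in Unt, 5.86, 3.5 and 2.94 in DOX, 7.91, 4.48 and 3.19 in D_DXZ, and 16.3, 18.3 and 29.4 in D_MgHCF. The fall in DOX was 2.52 ± 0.30 (adjusted p = 8.38e-05), and D_MgHCF overlapped Unt. Sesn1 fell in DOX from 6.18 to 6.51 FPKM to 2.28 to 2.91 (by 1.01 ± 0.20, adjusted p = 0.00196), a call lost under quantile normalization (adjusted p = 0.0885). It was at 11.2, 10.4 and 5.61 in D_MgHCF, where the log2 change of 0.41 missed the threshold (adjusted p = 0.129) and without replicate 3 reached 0.69 (adjusted p = 0.000264). Gdf15, a secreted stress cytokine, was at 18.2, 18.7 and 21.3 FPKM in Unt, 7.97, 3.37 and 2.24 in DOX, 5.92, 4.70 and 2.39 in D_DXZ, and 32.3, 28.3 and 48.0 in D_MgHCF. All DOX and D_DXZ libraries were below Unt and all D_MgHCF libraries above it. The fall in DOX was called (2.02 ± 0.37, adjusted p = 0.00125), and the D_MgHCF change of 0.83 ± 0.37 was not (adjusted p = 0.0977).

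The other 3 genes of this role were higher in DOX on the deposited scale. Rps27l, the ribosomal protein S27-like gene with a printed element, had the highest Unt FPKM of the members at 97.4 to 102 FPKM in Unt, 296, 338 and 319 in DOX, 226, 268 and 275 in D_DXZ, and 138, 118 and 126 in D_MgHCF. Its log2 change was 1.67 ± 0.11 in DOX (adjusted p = 1.07e-05) and 0.35 ± 0.11 in D_MgHCF (adjusted p = 0.028). Quantile normalization took the first to 0.08 and off the call. Cd82, a tetraspanin, was at 22.7, 21.2 and 24.2 FPKM in Unt, 50.1, 52.1 and 56.3 in DOX, 34.4, 49.0 and 39.6 in D_DXZ, and 44.5, 34.1 and 43.5 in D_MgHCF. Its rise in DOX (1.19 ± 0.14, adjusted p = 6.66e-05) became -0.14 on the TPM scale, whereas that in D_MgHCF (0.81 ± 0.14, adjusted p = 0.00134) held in all 22 alternatives. Fdxr, the reductase that feeds electrons to mitochondrial cytochromes P450, was at 7.22, 8.40 and 8.66 FPKM in Unt, 20.9, 16.7 and 18.2 in DOX, 12.3, 16.2 and 13.7 in D_DXZ, and 45.5, 36.2 and 17.5 in D_MgHCF. It rose in D_MgHCF (1.81 ± 0.28, adjusted p = 0.000728) on all 4 scales and in DOX (1.11 ± 0.28, adjusted p = 0.00807) on the deposited and quantile scales, with -0.15 on the TPM scale.

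The D_DXZ vs Unt comparison shows the target genes under the drug with the clinical protectant. D_DXZ had 4 of 33 members higher (12.1%, against 15.9% of all genes) and 12 lower (36.4%, against 18.0%). Among genes of at least 1 FPKM the counts were 6 (18.2%, against 32.8%) and 13 (39.4%, against 34.8%), so the share called lower was near the background there. The genes called higher were Perp (1.74 ± 0.14), Rps27l (1.36 ± 0.11), Cd82 (0.81 ± 0.14) and Ccng1, of which Cd82 and Ccng1 turned to -0.34 and -0.36 on the TPM scale. The falls included Gadd45a (by 2.51), Sesn2 (by 2.26 ± 0.30), Gdf15 (by 1.99 ± 0.37), Plk2 (by 1.96 ± 0.38), Phlda3 (by 1.72 ± 0.58) and Bbc3 (by 1.58 ± 0.32). The other 6 were Pml, Ppm1d, Fas, Sesn1, Zmat3 and Polk, which fell by 0.61 to 1.08. Of these calls Ccng1 was lost or turned in 15 of 22 alternatives, Zmat3 was lost in 12, Polk in 11 and Phlda3 in 10, in each case also with the replicate block and without any 1 Unt library. The members' median log2 change was -0.39, beside -0.02 for all genes of at least 1 FPKM.

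The D_DXZ vs DOX comparison sets the drug with dexrazoxane against the drug alone. No member was called higher or lower by limma on log2(FPKM + 1) or by voom on recovered reads, and on the first none of the 25044 genes was called (0% higher, 0% lower). At an unadjusted p under 0.05 there were 2 members higher and 5 lower, where 4.56% of all genes were higher and 4.97% lower. The 2 higher were Gadd45a (1.69 ± 0.33, adjusted p = 0.197) and Plk2 (0.89 ± 0.38, adjusted p = 0.506). Gadd45a was at 2.63 to 9.80 FPKM in D_DXZ against 0.588 to 1.68 in DOX, so the groups did not overlap, with a D_DXZ mean 5.78 times that of DOX. The 5 lower were Cdkn1a (-1.24 ± 0.43), Eda2r (-1.20 ± 0.36), Btg2 (-1.09 ± 0.40), Cd82 (-0.37 ± 0.14) and Rps27l (-0.31 ± 0.11), with adjusted p from 0.369 to 0.46. For Cdkn1a each D_DXZ library (3.23 to 5.70 FPKM) lay below each DOX library (6.49 to 23.8), and for Eda2r likewise (0.484 to 0.699 against 1.45 to 6.00). DOX replicate 1 was the highest DOX library for Cdkn1a, Eda2r and Btg2.

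The D_MgHCF vs DOX comparison sets the drug with the nanocatalysts against the drug alone, in groups that also differed in the authors' library scaling. It had 22 of 33 members higher (66.7%, against 31.4% of all genes) and 4 lower (12.1%, against 20.1%). All 6 arrest genes rose: Btg2 by 3.10 ± 0.40, Plk2 by 2.66 ± 0.38, Cdkn1a by 2.64 ± 0.43, Plk3 by 1.91 ± 0.41, Gadd45a by 1.83 ± 0.33 and Zmat3 by 1.72 ± 0.25. Of the 9 apoptosis genes tested, 6 rose, with Eda2r at 2.71 ± 0.36 and Bbc3 at 1.56 ± 0.32. Gdf15 rose by 2.85 ± 0.37, Sesn2 by 2.13 ± 0.30, Sesn1 by 1.42 ± 0.20, Ppm1d by 1.98 ± 0.19 and Polk by 1.01 ± 0.21. The 4 lower were Perp (by 1.66 ± 0.14), Rps27l (1.31 ± 0.11), Trp53 (1.11 ± 0.13) and Cd82 (0.38 ± 0.14), of which Trp53 turned to 0.081 on the TPM scale, Rps27l to 0.20 under quantile normalization, and Cd82 to 0.57 to 0.82 on the other 3 scales. Trp53 also lost its call on summed reads and under quantile normalization. With genes of at least 1 FPKM alone, 23 members were higher and 4 lower, where 35.9% and 39.2% of all such genes were. The members' median log2 change was 1.20, beside -0.09 for all genes of at least 1 FPKM. On the TPM scale these medians were 2.23 and 0.87, with 28 members higher and 1 lower, beside 53.2% and 6.70% of all genes. Mdm2, Phlda3 and Ei24 lost their call without D_MgHCF replicate 3 (adjusted p = 0.087, 0.0546 and 0.0599). Over the 22 alternatives Mdm2 and Ei24 each lost it in 13, Phlda3 in 4, and Cd82 lost it in 12 and turned in 3.

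The D_MgHCF vs D_DXZ comparison sets the protectants side by side. There were 23 of 33 members higher in D_MgHCF (69.7%, against 29.4% of all genes) and 3 lower (9.09%, against 19.0%). Among genes of at least 1 FPKM, 23 were higher and 4 lower, where 32.7% and 37.6% of all such genes were. Btg2 differed most at 4.19 ± 0.40 (adjusted p = 2.63e-05), followed by Eda2r at 3.91 ± 0.36 and Cdkn1a at 3.88 ± 0.43. The Cdkn1a mean in D_MgHCF was 18.8 times that in D_DXZ, with no overlap of the libraries. Gadd45a did not differ beyond its error, at 0.14 ± 0.33 (adjusted p = 0.754), with D_DXZ at 2.63 to 9.80 FPKM and D_MgHCF at 5.36 to 6.80. Lower in D_MgHCF were Perp (by 1.36 ± 0.14), Rps27l (by 1.00 ± 0.11) and Trp53 (by 0.85 ± 0.13), of which Rps27l and Trp53 turned to 0.034 and 0.17 on the TPM scale and Rps27l to 0.25 under quantile normalization. The Trp53 call was also lost on summed reads and under quantile normalization.

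**Figure D4:**
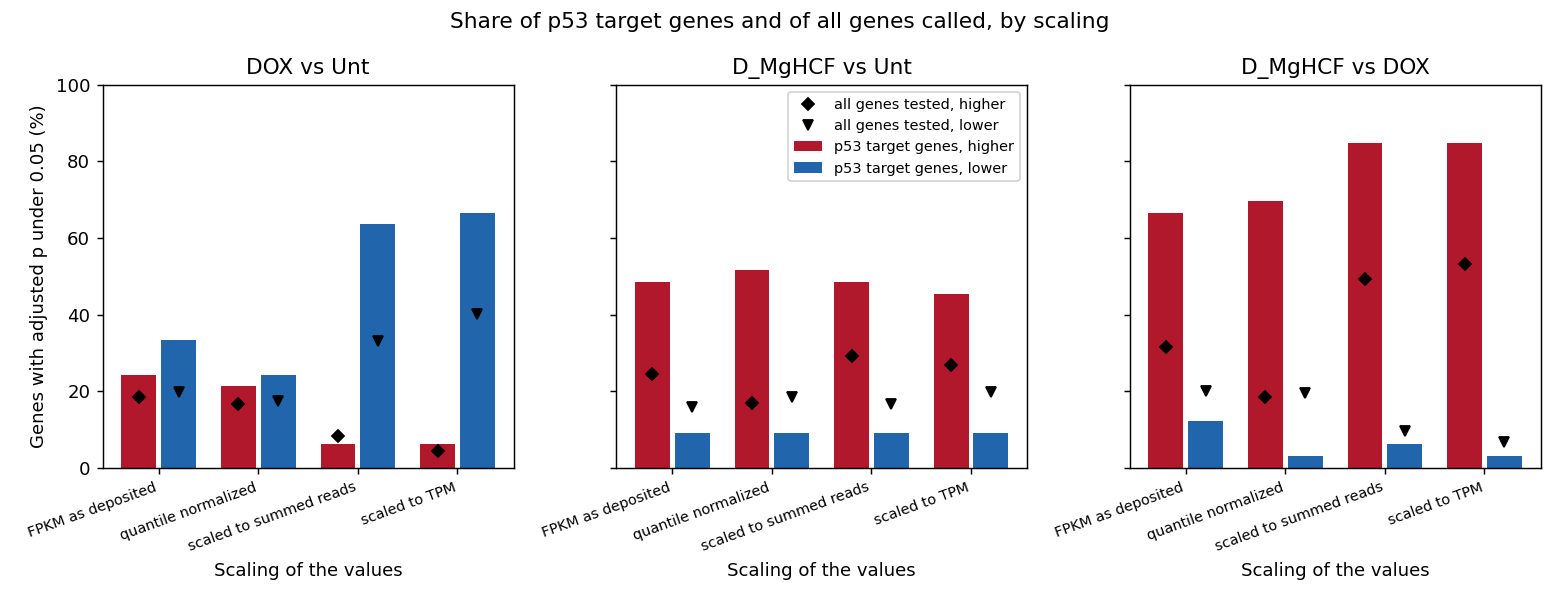
Percent of the 33 p53 target genes (bars, red higher, blue lower) and of all 25044 genes tested (black symbols, diamonds higher, triangles lower) called at an adjusted p under 0.05, for 3 comparisons and 4 scalings of the values. In DOX vs Unt the members go from 8 higher and 11 lower as deposited to 2 and 22 on the TPM scale, while in D_MgHCF vs Unt they stay at 15 to 17 higher and 3 lower.

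The libraries of a group did not sit evenly on these genes. In Unt no member differed by a factor of 2 between libraries, while 12 did in DOX, 6 in D_DXZ and 16 in D_MgHCF. DOX replicate 1 was at least 1.5 times both other DOX libraries for 14 members, among them Cdkn1a, Mdm2, Btg2, Eda2r, Gdf15 and Gadd45a. D_MgHCF replicate 3 was at least 1.5 times both others for 13 members, among them Cdkn1a, Mdm2, Bbc3, Phlda3, Trp53inp1 and Pml, and at most 1/1.5 of both for 5, which were Sesn1, Plk2, Plk3, Rrm2b and Fdxr. Over all expressed genes the replicates of D_MgHCF correlated at r = 0.942 to 0.984, against 0.994 to 0.995 in Unt. The mitochondrial share of reads was 1.19% to 1.41% in Unt, 2.73% to 2.89% in DOX and 1.76% to 3.16% in D_MgHCF, and its part in these results was not tested. Leaving out DOX replicate 1 and D_MgHCF replicate 3 together gave 8 members higher and 16 lower in DOX vs Unt, 18 and 6 in D_MgHCF vs Unt, and 23 and 5 in D_MgHCF vs DOX. In that fit the shares of all genes were also larger, at 22.5% higher and 23.4% lower, 33.5% and 20.1%, and 36.7% and 22.8% for the same comparisons. Each library's median over the members, relative to the Unt mean, was 0.62, 0.53 and 0.79 in D_MgHCF, -0.05, -0.04 and -0.45 in DOX, and -0.44, -0.41 and -0.54 in D_DXZ on the log2 scale. Across the 33 members, Spearman's rho of the log2 change with the gene's length on the chromosome was 0.015 for DOX vs Unt, -0.106 for D_MgHCF vs Unt and -0.322 for D_MgHCF vs DOX, a description across genes of the same libraries, which are not independent.

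Other genes of the pathway were counted from lists, with no test of a list as a set. Of all genes tested, 18.6% were higher and 19.9% lower in DOX vs Unt, and 24.3% and 15.7% in D_MgHCF vs Unt. In D_MgHCF vs DOX they were 31.4% and 20.1%. Among genes of at least 1 FPKM the shares were 37.1% and 36.0%, 24.6% and 29.9%, and 35.9% and 39.2%, in that order. Beside such shares the counts alone are not a result about the lists. Of 24 further p53-induced genes, 23 were tested. In DOX vs Unt 5 were higher and 13 lower, in D_MgHCF vs Unt 6 and 3, and in D_MgHCF vs DOX 13 and 4. Polh, the translesion polymerase eta, was at 14.4 ± 0.222 FPKM in Unt (SD, n = 3), 3.17 ± 0.953 in DOX and 12.6 ± 1.96 in D_MgHCF, and Sertad1 at 10.1 ± 0.644, 1.36 ± 0.58 and 5.94 ± 2.69. Fuca1, a lysosomal fucosidase, and Ikbip went the other way in DOX, from 10.3 ± 0.754 to 40.7 ± 2.06 FPKM and from 7.45 ± 0.901 to 32.0 ± 4.19. The list's higher calls in DOX vs Unt were 2 on the TPM scale and 3 on summed reads, where 4.39% and 8.28% of all genes were higher. Of 18 regulators of p53, 2 were higher and 11 lower in DOX vs Unt, 1 and 11 in D_MgHCF vs Unt, and 6 and 4 in D_MgHCF vs DOX. Cdkn2a, whose Arf product inhibits Mdm2, was at 389 ± 16.1 FPKM in Unt, 2089 ± 376 in DOX, 1735 ± 296 in D_DXZ and 533 ± 233 in D_MgHCF, with a log2 change of 2.41 in DOX vs Unt (adjusted p = 0.000158). Crebbp, Ep300 and Kat5, acetyltransferases that modify p53, fell by 1.93, 1.81 and 1.96 in DOX. Of 14 cell cycle genes that p21 lowers through the DREAM complex, 3 were higher and 5 lower in DOX vs Unt, 1 and 7 in D_MgHCF vs Unt, and 6 and 5 in D_MgHCF vs DOX. Plk1, the mitotic kinase, was at 54.4 ± 4.19 FPKM in Unt, 9.66 ± 1.5 in DOX and 48.5 ± 5.47 in D_MgHCF. The cyclin genes parted, with Ccna2 at 37.0 ± 1.35, 7.56 ± 1.28 and 21.1 ± 4.23 FPKM, Ccnb1 at 37.9 ± 0.833, 12.2 ± 1.33 and 36.2 ± 12.9, and Ccnb2 at 25 ± 0.39, 57.6 ± 6.04 and 10.6 ± 4.73 in the same 3 groups. In DOX vs Unt this list had 0 higher on each of the other 3 scales, and 12 lower on the TPM scale. On the TPM scale 4.39% of all genes were higher and 40.1% lower. On summed reads 8.28% of all genes were higher, and under quantile normalization 16.7%.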

How the data were processed

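Poly(A) libraries were sequenced as paired-end reads and, per the submitters' processing notes, aligned with HISAT2 2.0.5 to GRCm38 (mm10). The authors deposited 1 table of FPKM per gene and library, the only values used. The counting program, annotation release, strand setting and doses in the sequenced cells are not given in the sources used here. FPKM times gene length was a whole multiple of 1 step per library (tolerance 0.1 read), which gave the reads per gene. All 12 library columns were assigned, and 0 other sample columns were present.

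Log2(FPKM + 1) of genes above 0 in at least 3 libraries was fitted in limma 3.58.1 (R 4.3.3), with 4 groups and a mean-dependent prior, and adjusted over 25044 genes. The test was checked on simulated data. Alternatives were a pseudocount of 0.1, other filters and scalings, voom on recovered reads, the replicate block, other call rules and leaving out each library. Rescaling to summed reads and leaving out 2 libraries together were added after seeing the data. Overlapping genes came from GENCODE M21, and copies of at least 95% identity over 300 bases from BLAST+ 2.17.0. The members and lists were chosen with earlier results of these data known. All 34 members are described, and from each other list the 4 genes with the largest DOX vs Unt change among those called at a mean of at least 1 FPKM. Motif matches are printed for the genes with the best match. Matches were sought in RefSeq windows of GRCm38.p6.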

Additional observations from a re-analysis of the deposited data

How the results depend on the processing

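On the TPM scale the p53 target genes called higher and lower were 2 and 22 in DOX vs Unt, 1 and 24 in D_DXZ vs Unt, and the lower ones 1 in D_MgHCF vs DOX and 1 in D_MgHCF vs D_DXZ. Of all genes, 4.39% were higher and 40.1% lower in DOX vs Unt, and 3.66% and 39.6% in D_DXZ vs Unt. In D_MgHCF vs DOX and D_MgHCF vs D_DXZ, 6.70% and 6.14% of all genes were lower. On summed reads the members called were 2 and 21, 2 and 23, and 2 lower in D_MgHCF vs DOX, and quantile normalization left 1 lower there. Shares of all genes on summed reads were 8.28% and 33.1%, 7.64% and 31.7%, and 9.59% lower in D_MgHCF vs DOX. Under quantile normalization 19.6% of all genes were lower there. Turned signs are listed here only where the change was called as deposited or under the alternative. Uncalled changes turned too, such as Cdkn1a in DOX vs Unt, which ran from -0.83 to 0.76 over the 22 alternatives. Btg2 ran there from -0.75 to 0.70. Listed signs that turned in DOX vs Unt on the TPM scale were Trp53 -1.20, Ccng1 -0.15, Tnfrsf10b -1.18, Plk3 -1.02, Ei24 -0.54, Rrm2b -0.28, Aen -1.11, Cd82 -0.14, Fdxr -0.15 and Ercc5 -1.02. On summed reads these were Trp53 -0.79, Tnfrsf10b -0.80, Ei24 -0.15, Aen -0.73 and Ercc5 -0.68, and under quantile normalization Trp53 -1.08. In D_DXZ vs Unt, TPM turned Ccng1 to -0.36, Cd82 to -0.34 and Ercc5 to -0.82, and summed reads turned Ercc5 to -0.47. Quantile normalization instead called Ercc5 higher than in Unt in DOX (0.48) and D_DXZ (0.49). In D_MgHCF vs DOX, Trp53 became 0.081 on the TPM scale, Cd82 0.82 (TPM), 0.59 (quantile) and 0.57 (summed reads), and Rps27l 0.20 (quantile). In D_MgHCF vs D_DXZ, Trp53 became 0.17 and Rps27l 0.034 on the TPM scale, Rps27l 0.25 under quantile normalization, and Cd82 1.01, 0.72 and 0.76. Pml in D_MgHCF vs Unt became -0.26 without DOX replicate 1 and D_MgHCF replicate 3.

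Fitting only the 2 groups compared gave 8 higher and 19 lower in D_DXZ vs Unt. Requiring a 2-fold change left 7 lower in DOX vs Unt, and 2 higher and 7 lower in D_DXZ vs Unt. An unadjusted p gave 2 higher and 5 lower in D_DXZ vs DOX, where 4.56% and 4.97% of all genes were. Without DOX replicate 1 and D_MgHCF replicate 3 together, 8 were higher in D_DXZ vs Unt and 6 lower in D_MgHCF vs Unt. In that fit 19.9% of all genes were higher in the first and 20.1% lower in the second. Leaving out 1 library at a time gave 5 to 8 higher in DOX vs Unt (5 without Unt replicate 2 or DOX replicate 1), 3 to 7 higher in D_DXZ vs Unt (7 without D_MgHCF replicate 3) and 3 to 5 lower in D_MgHCF vs Unt (5 without D_MgHCF replicate 3). The cause of these changes was not tested. For the fit of 2 groups, the 2-fold rule, single libraries left out and the replicate block, shares of all genes are not given. Those counts show how stable the calls were and are not read as a result about these genes. Of the single-gene values under alternatives, 3999 stayed on their side of the threshold, 178 lost a call and 147 gained one. Another 32 turned sign with a call before or after. Values that turned sign without a call are among the 3999. Deviations of same-numbered libraries correlated at r from -0.31 to 0.31 over 18 pairs, 2 of them over 0.1. Both of these were DOX with D_DXZ, at 0.31 for replicate 1 and 0.22 for replicate 3. A differently numbered pair, D_MgHCF replicate 3 with D_DXZ replicate 1, reached 0.26. Whether DOX and D_DXZ libraries were paired was not tested. With the replicate block the counts were 7 higher and 11 lower in DOX vs Unt, 3 and 9 in D_DXZ vs Unt, 16 and 3 in D_MgHCF vs Unt, 21 and 3 in D_MgHCF vs DOX, and 22 and 3 in D_MgHCF vs D_DXZ. In D_DXZ vs DOX all 33 members stayed uncalled with the block. Depth limits the members under 50 reads in some library, 6 of 33.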
